A study of Mus musculus and Rattus norvegicus with 6 samples.

Results

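Liver transcripts of 10 proteins that coat, fuse or load lipid droplets were followed on 6 Affymetrix expression arrays, 3 of mouse and 3 of rat liver. The members were the CIDE proteins Cidea, Cideb and Cidec, the perilipins Plin2, Plin3, Plin4 and Plin5, the lipase inhibitor G0s2 and the fat storage proteins Fitm1 and Fitm2. They were taken by symbol, with every probe set annotated to one of these symbols alone. That gave 10 of 18193 named genes and 11 of 45037 probe sets in mice, and 10 of 14217 named genes and 12 of 31042 probe sets in rats. The group was chosen by its signals on these same arrays, through the ratios of saline mutant to WT liver, so those ratios describe it and support nothing.

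The mouse groups were leptin-injected Lepob/Lepob mice, saline-injected Lepob/Lepob mice and saline-injected WT control littermates, all males of 20 weeks on a C57/BL6J background. The rat groups were leptin-injected Lepmkyo/Lepmkyo rats, saline-injected Lepmkyo/Lepmkyo rats and saline-injected WT control littermates, all males of 20 weeks on an F344/NSlc background. The rat labels are not uniform (titles and genotype fields give Lepmyo/Lepmkyo, source fields Lepob/Lepob), and Lepmkyo/Lepmkyo follows the descriptions. Recombinant murine leptin or saline was given into the peritoneum and liver was taken 6 hours later, at a time chosen to catch early responses that precede changes in feeding and weight; the dose reads 1 microg/mg and is not interpreted. Both mutations remove leptin from the whole animal, and in neither species was leptin given to WT animals. Each group was 1 array, with no statement of whether its RNA was pooled, so no test was possible. A gene called higher or lower differed between 1 array and another, with no estimate of the spread between animals.

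A lipid droplet is a core of triglyceride and sterol ester under a single layer of phospholipid. Perilipins cover that surface and limit the access of lipases: Plin2 is the common coat protein of hepatocytes, Plin3 moves between cytosol and droplets, Plin4 is best known from adipocytes and Plin5 from tissues that oxidise fatty acids. CIDE proteins gather where droplets touch and move lipid from the smaller to the larger one; Cidea is best known from brown fat, Cidec from white fat, and Cideb from liver, where it also takes part in loading lipid onto very low density lipoprotein. G0s2 binds and inhibits adipose triglyceride lipase. The Fitm proteins sit in the endoplasmic reticulum and help triglyceride to leave it into droplets, Fitm1 mainly in skeletal muscle and Fitm2 in many tissues.

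The sequences just before the gene starts were searched for the motifs of factors known to control such genes. RefSeq windows of the 250 bases before a transcript start, on mouse assembly GRCm38.p6, were searched for 9 of the 10 members (11 windows). The windows of a whole chromosome were left out of the search and of the shares over all windows. Cidea had no window in the set searched, so nothing is said of its start. Shown are Cidec and Plin4, which had large differences between genotypes in mice, Cideb, the CIDE gene without one, and Plin2 and Plin5, which hold the motif letters searched. Each runs 5′ to 3′ on the minus strand and stops at the outermost annotated start of its gene; capitals mark the motif matches.
Cidec, chr6:113435761-113436010: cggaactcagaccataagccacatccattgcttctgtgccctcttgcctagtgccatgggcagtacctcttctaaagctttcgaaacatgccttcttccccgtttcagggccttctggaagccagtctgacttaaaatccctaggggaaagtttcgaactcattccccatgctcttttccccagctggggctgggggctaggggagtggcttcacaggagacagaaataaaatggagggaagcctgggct
Cideb, chr14:55758425-55758674: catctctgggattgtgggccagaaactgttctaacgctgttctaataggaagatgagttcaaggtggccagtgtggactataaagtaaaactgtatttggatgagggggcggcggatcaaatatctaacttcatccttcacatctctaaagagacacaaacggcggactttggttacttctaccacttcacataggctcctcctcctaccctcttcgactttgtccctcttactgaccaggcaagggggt
Plin4, chr17:56109949-56110032: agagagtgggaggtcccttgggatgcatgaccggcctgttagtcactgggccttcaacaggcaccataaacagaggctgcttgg
Plin2, chr4:86670218-86670309: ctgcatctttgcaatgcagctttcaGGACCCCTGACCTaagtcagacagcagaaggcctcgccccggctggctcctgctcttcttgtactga
Plin5, chr17:56117607-56117798: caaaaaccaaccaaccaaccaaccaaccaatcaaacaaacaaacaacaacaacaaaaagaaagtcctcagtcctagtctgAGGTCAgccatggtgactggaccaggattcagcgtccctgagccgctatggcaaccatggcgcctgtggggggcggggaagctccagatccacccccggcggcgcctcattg

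The motif searched first was the PPAR direct repeat, AGGTCA in tandem with a single base between, which PPAR receptors bind together with RXR; both strands were read with at most 2 mismatches. It was found in 1 of the 11 member windows, at 225 to 213 bases before a Plin2 start with 2 mismatches, and in 3.24% of all 32851 windows searched. The single element AGGTCA, exact and on both strands, was found in 2 of the 11 windows (Plin2, inside the repeat, and Plin5) and in 14.0% of all windows. The STAT motif TTCNNNGAA, which reads the same on both strands, was found in 0 of the 11 and in 7.02% of all. A match is no evidence of binding, and no match says only that these letters are not in the window. Plin4 and Plin5 are neighbours on chromosome 17 with 0 protein-coding genes between them, and Plin3 lies 7 protein-coding genes further on.

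All values are MAS5 signals, a linear brightness per probe set scaled on each array. Signals are comparable between arrays for 1 probe set but not between genes. A signal floor stood in for detection calls, set at 82.7 for the mouse arrays and 97.0 for the rat arrays (the median signal over each species' 3 arrays), and a ratio with an array under it is a bound. Array medians were 77.0 to 91.9 in mice and 93.6 to 99.3 in rats. Each gene is given by its brightest probe set, and ratios are log2 ratios of signals raised to the floor. Where a gene had several probe sets, the pooled SD of their log2 ratios was 0.45 in mice and 0.44 in rats between genotypes and 0.26 and 0.25 between treatments. It holds technical error and differences between the probe sets themselves, and nothing of the variation between animals. In whole liver, fewer cells of a type and less RNA per cell cannot be told apart.

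Cidea was the member that differed most between genotypes in both species. In mice its signal was 13498.5 in leptin-injected and 14758 in saline-injected Lepob/Lepob liver, against 18.8 in WT liver. The WT array was under the floor and both mutant arrays far over it, which made Cidea at least 178-fold higher in the saline mutant and, with this floor, first in order of 11956 measured genes. In rats the signal was 2988 in leptin-injected and 3573 in saline-injected Lepmkyo/Lepmkyo liver, against 1336 in WT liver. All 3 rat arrays were over the floor, and the saline mutant was 2.67-fold higher than WT, at place 113 of 9817.

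Cidec followed the same order in mice. Its signal was 2808 with leptin and 3144 with saline in Lepob/Lepob liver, against 32.6 in WT liver, so WT was again under the floor. The saline mutant was at least 38.0-fold higher. In rats, 3798 with leptin and 3934 with saline in the mutants stood against 2358 in WT, a 1.67-fold difference. Cideb, the CIDE gene best known from liver, hardly differed: 8036 and 8532 in the leptin and saline mutant mice against 8088 in WT mice, and 3382 and 3216 in the leptin and saline mutant rats against 3131 in WT rats. Its saline mutant to WT ratios were 1.05-fold in mice and 1.03-fold in rats, well within the spread between probe sets.

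Among the perilipins, Plin4 had the largest difference in mice. Its signal was 2545 with leptin and 2746 with saline in Lepob/Lepob liver, against 187 in WT liver, a 14.7-fold difference between the saline arrays at place 17 of 11956. In rats the signals were 64.4 and 91.4 in the leptin and saline mutants against 97.7 in WT, with only the WT array over the floor, and that by less than 1% of the signal; the floored rat ratio of -0.01 is set by the floor and gives no direction.

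Plin2 was bright on all 6 arrays. Its signals of 24551 and 23598 in leptin- and saline-injected Lepob/Lepob liver stood against 15354 in WT liver, a 1.54-fold difference between the saline arrays. The rat signals were 14675 and 16002 in the leptin and saline mutants against 12879 in WT, 1.24-fold apart with saline. A dimmer Plin2 probe set in rats (526.0 and 671 in the leptin and saline mutants, 416 in WT) gave 1.61-fold. Both species therefore had their lower Plin2 signal in WT, by less than 2-fold.

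Plin5 was represented by 2 probe sets in mice. The brighter one read 4029 and 4226 in leptin- and saline-injected Lepob/Lepob liver against 2084 in WT liver, 2.03-fold apart with saline, and the other read 1822 and 1972 against 1147, or 1.72-fold. Both placed the mutants above WT on either side of the 2-fold line. In rats Plin5 was dim, with 84.8 and 182 in the leptin and saline mutants against 169 in WT. Plin3 was the perilipin in which the rats differed more: 4485 and 5169 in the leptin and saline mutant rats against 2616 in WT rats, or 1.98-fold with saline. In mice its signals were 1044 and 1193 in the leptin and saline mutants against 1026 in WT, or 1.16-fold.

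G0s2, the lipase inhibitor, was 2.36-fold higher in saline-injected Lepob/Lepob than in WT mice, with signals of 11608 with leptin and 11569 with saline in the mutants against 4906 in WT. In rats the difference was 1.32-fold, from 12418 and 13174 in the leptin and saline mutants against 9987 in WT. The mutant arrays were the brighter ones in both species. Fitm1 read 4891 and 4830 in the leptin and saline mutant mice against 1566 in WT mice, a 3.08-fold difference with saline. In rats its 3 signals of 19.0, 38.5 and 20.1 (leptin mutant, saline mutant, WT) were all under the floor, and no fold is given. Fitm2 read 3337 and 2910 in the leptin and saline mutant mice against 1519 in WT mice, 1.92-fold apart with saline. In rats it was slightly lower in the mutants, with 1113 and 1094.5 against 1328, or 1.21-fold, and the second rat probe set had the same direction (log2 ratio -0.22).

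**Figure D1:**
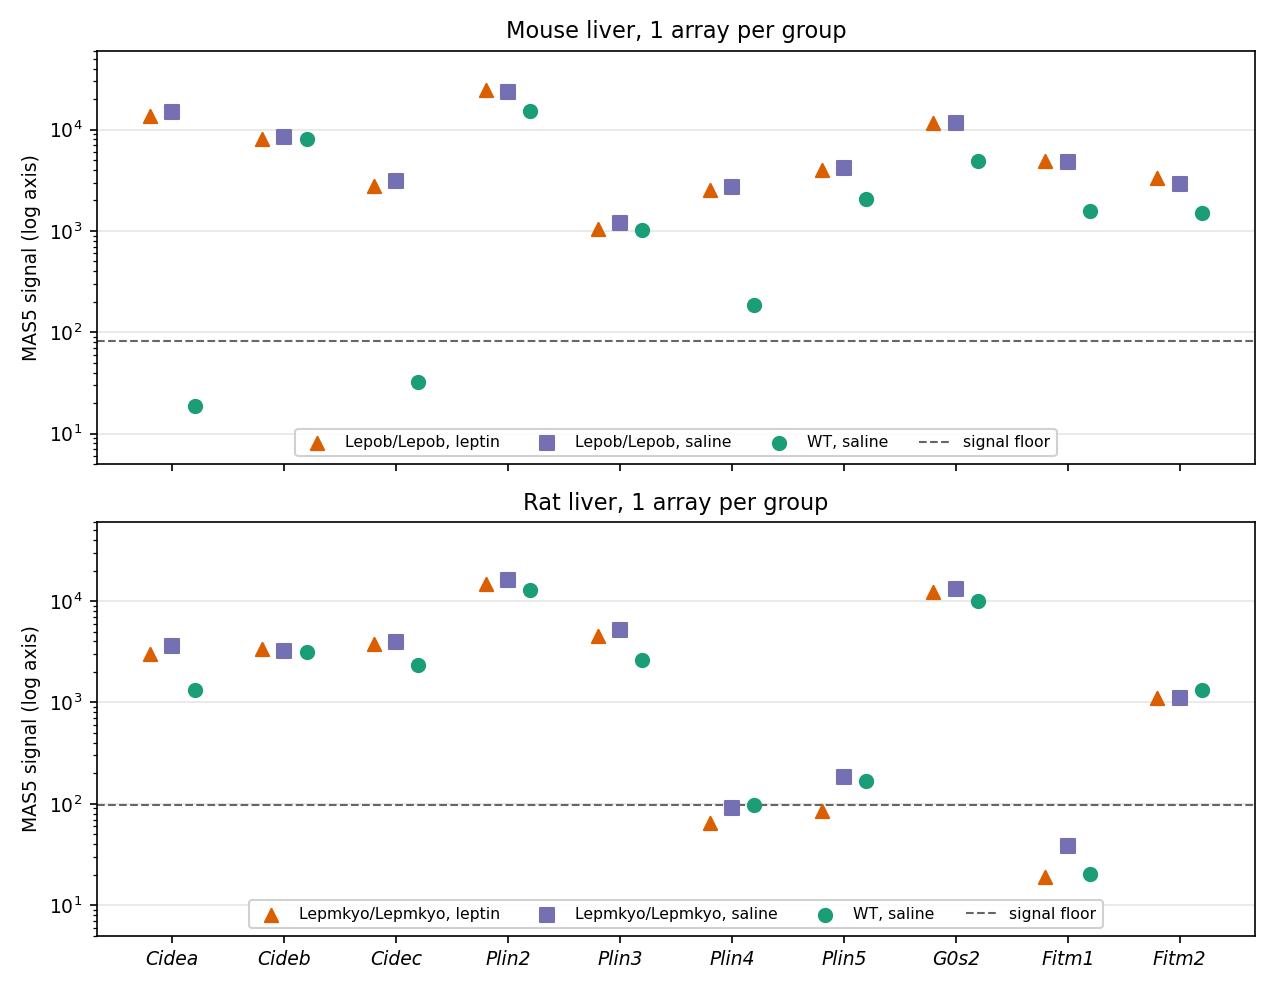
MAS5 signal (log axis) of the brightest probe set of each member on the 3 mouse arrays (upper panel) and the 3 rat arrays (lower panel); triangles are leptin-injected mutants, squares saline-injected mutants, circles WT, and the dashed line is the floor of 82.7 in mice and 97.0 in rats. The mutant symbols lie together in mice, with WT far below them for Cidea, Cidec and Plin4, while in rats Plin4 and Fitm1 lie at or under the floor.

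Counted over the group, 6 of 10 members were at least 2-fold higher and 0 lower in saline-injected Lepob/Lepob than in WT mouse liver, beside 4.46% of 11956 genes higher and 3.71% lower. The 6 were Cidea, Cidec, Plin4, Fitm1, G0s2 and Plin5. The ratio was above 0 for all 10, and the members' median log2 ratio was 1.13 beside -0.03 over all genes. Dividing each array by its median shifted the median of all genes by 0.24, to 0.22, and turned the 533 higher and 443 lower genes into 962 and 235; the members' median was then 1.38, again above that of all genes. Plin5 at 2.03-fold was the member just past the 2-fold line and Fitm2 at 1.92-fold the one just short of it, and both changed sides in other settings.

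In saline-injected Lepmkyo/Lepmkyo rat liver, 1 of 9 measured members, Cidea, was at least 2-fold higher than in WT and 0 were lower, beside 2.99% of 9817 genes higher and 1.45% lower. Ratios were above 0 for 7 of the 9, and the median was 0.31 beside 0.04 over all genes. Without Plin4, 7 of 8 were above 0 and the median was 0.36. Plin3 at 1.98-fold was just short of the line. Cidea, Cidec and Plin3 lay further from 0 than the spread between probe sets, as did 26.3% of all genes; in mice 8 of 10 members did, beside 36.0% of all genes.

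**Figure D2:**
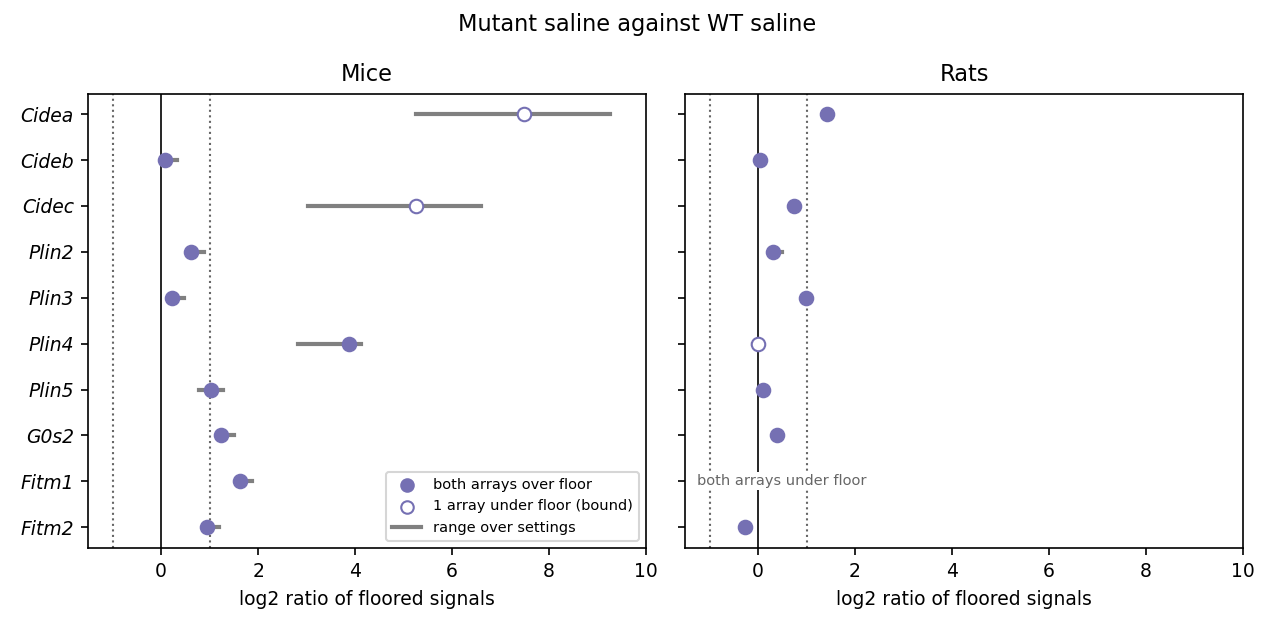
Log2 ratio of mutant saline to WT saline for each member in mice (left) and rats (right), from 1 array per group; filled points have both arrays over the floor, open points are bounds, bars span the main setting and its alternatives, and dotted lines mark 2-fold. The long bars of Cidea and Cidec in mice, 5.26 to 9.25 and 3.03 to 6.59, come with the height of the floor. Both WT signals were under the main floor, and that of Cidec was over the lower floor only.

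Set side by side, 4 of the 9 members measured in both species (Cidea, Cidec, Plin4 and Fitm2) had a genotype ratio at least 2-fold further up in mice than in rats, beside 4.49% of the 8303 genes measured in both. In the other direction there were 0 of 9, beside 5.83%. The differences of the log2 ratios, mice minus rats, were 6.06 for Cidea, 4.51 for Cidec, 3.89 for Plin4 and 1.22 for Fitm2, with the first 2 resting on the floor in WT mice and that of Plin4 on the floor in rats. Without Plin4 the count was 3 of 8. Plin3 had the opposite order, at -0.77. Cidea and Cidec were over the floor in WT rats and under it in WT mice. The arrays of the species carry different probe sets, and the difference was not tested.

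At 6 hours after leptin the members' signals lay close to those in saline-injected mutants. In mice 0 of 10 were 2-fold apart, beside 0.182% of 11536 genes higher and 0.243% lower, and all 10 lay within the spread between probe sets, which 23.9% of all genes exceeded. The log2 ratios of leptin to saline ran over a narrow range, the lowest being -0.19 for Plin3, -0.16 for Cidec and -0.13 for Cidea, and the highest 0.20 for Fitm2. Those of G0s2 (0.0048) and Fitm1 (0.018) were so near 0 that their sign turned in other settings.

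In rats 0 of 8 measured members were 2-fold apart after leptin, beside 0.237% of 9705 genes higher and 0.278% lower. Plin5 was the furthest, with 84.8 in the leptin-injected against 182 in the saline-injected mutant. That is at least 1.88-fold lower, at place 51 from the bottom, with the leptin array under the floor and the saline array not far over it. Cidea had a log2 ratio of -0.26, just beyond the probe set spread of 0.25, and 29.7% of all genes lay beyond it. The other 6 were within it, between -0.20 for Plin3 and 0.07 for Cideb. In mice Plin5 stood at -0.07. Between the species, 0 of 8 members had leptin ratios 2-fold further up in mice, beside 0.743% of 8213 genes, and 0 of 8 in rats, beside 0.584%.

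**Figure D3:**
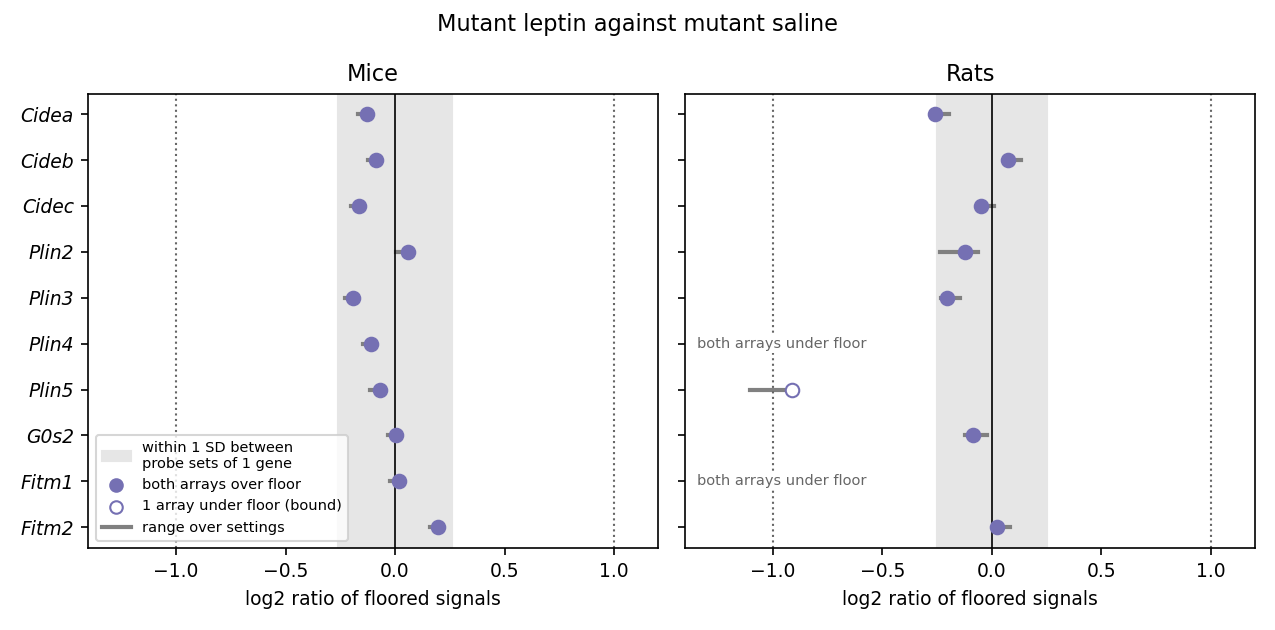
Log2 ratio of mutant leptin to mutant saline for each member in mice (left) and rats (right), with the same symbols and bars as for genotype and a grey band of 1 SD between a gene's probe sets. All mouse points lie in the band; rat Plin5, a bound, lies to the left of it.

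The leptin-injected mutants can also be set against WT. This comparison shares its arrays with the other 2, so its values are not independent of them. In mice 6 of 10 members were at least 2-fold higher than in WT and 0 lower, beside 3.98% of 11958 genes higher and 3.46% lower: Cidea at least 163-fold, Cidec at least 34.0-fold, Plin4 13.6-fold, Fitm1 3.12-fold, G0s2 2.37-fold and Fitm2 2.20-fold. Plin5 was at 1.93-fold. In rats 1 of 9 was higher, Cidea at 2.24-fold, beside 2.83% of 9742 genes, and 0 were lower, beside 1.61%. Plin3 stood at 1.71-fold and Cidec at 1.61-fold there.

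Among the wider set of droplet partners and triglyceride enzymes, 5 of 33 measured in mice were at least 2-fold higher in the saline mutant and 1 lower, beside 4.46% of all genes higher and 3.71% lower. The median log2 ratio of the set was 0.13, beside -0.03 over all genes. The glycerol phosphate acyltransferase Gpat3 had signals of 1984 in Lepob/Lepob against 97.3 in WT liver, 20.4-fold, with WT near the floor. Mogat1, which acylates monoacylglycerol, read 1290 against 52.6, at least 15.6-fold. Aifm2 was 3.52-fold higher by its brightest probe set and 1.85-fold and 2.77-fold by others. The monoglyceride lipase Mgll was 2.54-fold (2.86-fold and 3.36-fold by others) and the lipase inhibitor Hilpda 2.28-fold higher, and the squalene epoxidase Sqle 3.11-fold lower. In rats 3 of 32 were higher and 1 lower, beside 2.99% and 1.45% of all genes, with a median of 0.09 beside 0.04. They were the droplet hydrolase Pnpla3 at 42.1-fold (4100 in Lepmkyo/Lepmkyo against 97.5 in WT liver, at the floor), the acyltransferase Gpam at 2.79-fold, the droplet protein Hsd17b13 at 2.34-fold, and the acyl-CoA synthetase Acsl4 2.15-fold lower. Other probe sets of rat Pnpla3 gave at least 16.3-fold and 3.52-fold, and another of Gpam 1.37-fold. In mice Gpam was 1.99-fold and Hsd17b13 1.96-fold higher, just short of 2-fold, while Acsl4 was 1.36-fold and Pnpla3, near the floor, 1.39-fold lower. Another mouse Gpam probe set was lower (log2 ratio -0.40). Other mouse Acsl4 probe sets gave log2 ratios of -0.58 and -1.55, the last past 2-fold lower. Mogat1 and Plin1 were under the floor in rats, and Gpat3 was not analysed there.

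After leptin 0 of 33 partners in mice were 2-fold apart from the saline mutant, beside 0.182% of all genes higher and 0.243% lower. In rats it was 0 of 32, beside 0.237% of all genes higher and 0.278% lower. The mouse genes furthest from 0 were Hilpda at a log2 ratio of -0.69, Mogat1 at -0.50, Sqle at 0.41 and Lpcat1, a droplet phospholipid acyltransferase, at -0.36, with 2 other probe sets of Lpcat1 at 0.23 and -0.78. In rats they were Gpam at -0.86, the phosphatidate phosphatase Lpin1 at -0.80, and 2 of the regulators that follow.

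Of 12 transcription factors and coactivators that govern droplet genes, 2 stood above WT by 2-fold or more in the saline mutant mice and 1 below it, beside the same 4.46% and 3.71% of all genes. Pparg, the adipogenic nuclear receptor, had signals of 920 and 878 in leptin- and saline-injected Lepob/Lepob liver against 222 in WT liver, 3.95-fold with saline. Ppara, the receptor that governs fatty acid oxidation, differed 3.39-fold by its brightest probe set, but 1.66-fold and 1.61-fold by others. Mlxipl, a glucose-responsive factor, was 2.41-fold lower. In rats 0 of 11 were 2-fold apart, beside 2.99% of all genes higher and 1.45% lower. Pparg read 62.5 and 115 in the leptin and saline mutants against 74.5 in WT, near the floor. The only rat probe set of Ppara was under the floor on all 3 arrays, so Ppara was not measured in rats. After leptin, 0 of 12 were 2-fold apart in mice, beside 0.182% of all genes higher and 0.243% lower. In rats 1 of 10 was, the coactivator Ppargc1a, with 128.5 in the leptin-injected against 257 in the saline-injected mutant, just past 2-fold lower, beside 0.278% of all genes. That call was lost with quantile normalization, with arrays divided by their medians and with the higher floor. The receptor Ppard had a log2 ratio of -0.72.

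**Figure D4:**
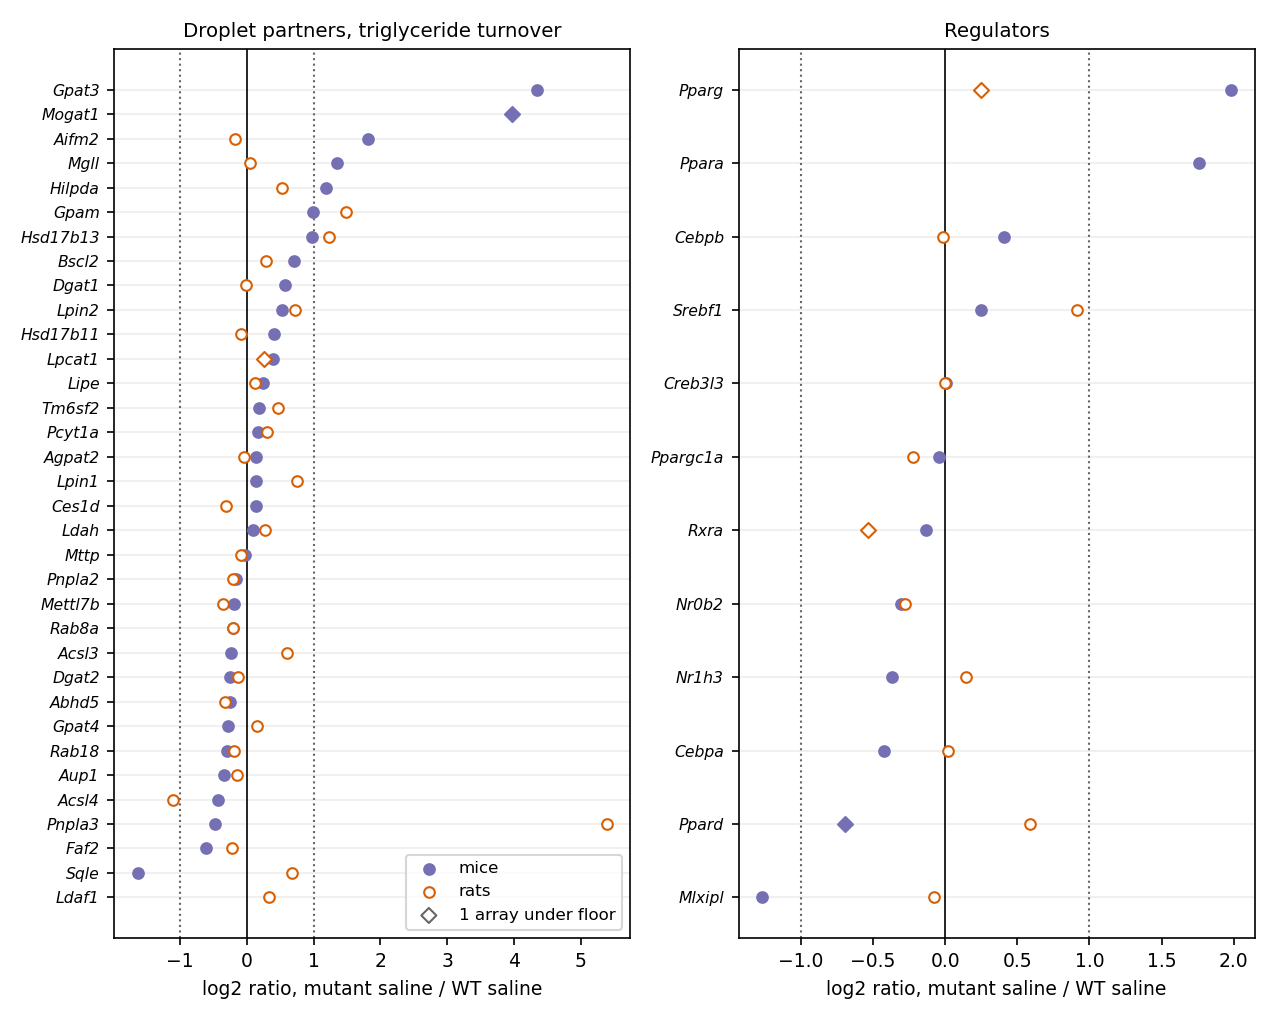
Log2 ratio of mutant saline to WT saline for droplet partners and triglyceride enzymes (left) and regulators (right), filled symbols for mice and open ones for rats, diamonds where 1 of the arrays was under the floor, and dotted lines at 2-fold. Most genes lie between the dotted lines in both species; Gpat3 and Mogat1 stand out in mice and Pnpla3 in rats.

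Markers of other cells were read beside these values, since several members are best known from fat or muscle. Of the white adipocyte markers, Adipoq read 23.5 and 41.3 in the leptin and saline mutant mice against 17.2 in WT mice, and 35.5 and 26.1 in the mutant rats against 4.9 in WT rats, under the floor throughout; Lep and Acvr1c were under it on all 6 arrays too, as were Retn in mice and Plin1 in rats. The summed signal of the annotated white adipocyte markers was 3468 and 3596 in the leptin and saline mutant mice against 1459 in WT mice, mostly Fabp4 (3138.5, 3251 and 1125), and 1286 and 1684 in the mutant rats against 1026 in WT rats (Fabp4 504, 785 and 57.7). In rats Cfd read 502 and 463 in the leptin and saline mutants against 599 in WT, and Lipe 203 and 277 against 254. Of the brown adipocyte markers other than Cidea, Ucp1, Cox8b, Dio2 and Zic1 were under the floor on all arrays of both species. Cox7a1 was under it in rats, but in mice it read 157 and 208 in the leptin and saline mutants against 102 in WT, 2.04-fold higher with saline. Muscle markers were under it on all 3 arrays for 6 of 8 in mice and 7 of 8 in rats. The exception in rats was Myh1, whose brightest probe set read 13926, 13120 and 9368 in leptin mutant, saline mutant and WT liver. Its other probe sets were over the floor on all 3 arrays too, the dimmest with 486, 617 and 854 in that order. The annotation is in doubt since the other 7 muscle markers were under the floor.

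Macrophage markers, of which 10 of 12 were over the floor on all 3 mouse arrays, summed to 29491 and 31515 in the leptin and saline mutant mice against 21953 in WT mice, and in rats to 22210 and 21562 against 17990. Between saline mutant and WT mice, 3 of the 12 were at least 2-fold higher, beside 4.46% of all genes. They were Gpnmb at least 6.70-fold, Lyz2 2.10-fold and Cd68 2.0-fold. Marco and Clec4f were lower by less than 2-fold (log2 ratios -0.95 and -0.21). In rats 1 of 10 was higher, Gpnmb at 2.86-fold, beside 2.99% of all genes. Hepatocyte markers, all 8 over the floor in both species as the tissue label requires, summed to 270182 and 262242 in the mutant mice against 331828 in WT mice, and to 254138 and 232322 in the mutant rats against 257012 in WT rats. Between saline mutant and WT, 0 of the 8 were 2-fold higher or lower in mice, beside 4.46% and 3.71% of all genes. In rats 1 of 8 was lower, Tat, with 850 in the saline mutant against 5897 in WT, beside 1.45% of all genes. The part of these shifts in the members' ratios was not tested.

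The genes whose pattern over the 3 arrays of a species lay nearest to Cidea were found by Euclidean distance on floored log2 signals less their mean. In mice, among 12176 genes, they were the cytochrome Cyp2b9 at 1.05, the estrogen sulfotransferase Sult1e1 at 1.61 and the fatty acid hydroxylase Cyp4a14 at 1.75. Cyp2b9 read 5645 and 8032 in the leptin and saline mutants against 93.4 in WT. In rats, among 9952 genes, they were the galectin Lgals1 at 0.015, the ceramidase Acer2 at 0.018 and the neutrophil oxidase subunit Ncf4 at 0.023. The WT signals of Lgals1 (92.5) and Ncf4 (18.9) were under the floor, as was that of Sult1e1 in mice (2.8), so their nearness depends on it. In mice the WT signal of Cidea itself (18.8) was under the floor, so all 3 mouse distances depend on the floor. Acer2 read 951 and 1142 in the leptin and saline mutants against 433 in WT. With 3 arrays such nearness is a description of these arrays.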

How the data were processed

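Total RNA was extracted with Trizol, labelled with biotin and hybridised by the standard Affymetrix protocol, per the labels' protocols. The deposited values are linear signal intensities per probe set made by the authors with MAS5, per the submitters' processing notes, with no version. Trimmed means, leaving out 2% at each end, were 496.0 to 496.9 on the 6 arrays. Detection calls were not used here.

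Of the probe sets, 34945 in mice and 20826 in rats had 1 symbol in the platform annotation; others were left out. Mouse symbols were updated through gene identifiers (GRCm38.p6) for 34741. A gene entered a comparison if at least 1 of its 2 arrays reached the floor, and counted at 2-fold. With 1 array per group there were no tests. Members, lists and named genes were chosen with earlier results of these data known: all members, listed partners and regulators at 2-fold between genotypes, the 4 furthest from 0 after leptin in each species, and the 3 nearest patterns. The search for AGGTCA and the trimming of promoter windows were added after the windows had been searched. Lists covered droplet partners, regulators, and markers of white and brown adipocytes, muscle, macrophages and hepatocytes. Calculations were tested on simulated data. Python 3.11.15 with numpy 2.4.6 and pandas 2.3.3 was used.

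The 6 alternatives were quantile normalization, division by array medians, a lower floor (25th percentile) and a higher one (75th), a gene's median probe set, and leaving out probe sets that may bind several transcripts.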

Additional observations from a re-analysis of the deposited data

Results flagged for a closer look

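Listed here are the genes of opposite log2 ratio in the 2 species among all members, the partners and regulators 2-fold apart between genotypes in either species, and the 4 furthest from 0 after leptin in each. Partners and regulators were read only in the comparison by which they were chosen. Over all partners and regulators measured in both species, 14 of 42 had opposite signs between genotypes and 21 of 41 after leptin. With 1 array per group the differences were not tested. Between saline mutant and WT liver these were Plin4 (3.88 in mice and -0.01 in rats, a difference of 3.89, with the rat ratio set by the floor) and Fitm2 (0.94 and -0.28, a difference of 1.22). Among the partners they were Pnpla3 (-0.48 in mice and 5.39 in rats, a difference of -5.87, with mouse signals of 86.4 in the saline mutant and 120.5 in WT near the floor), Aifm2 (1.81 and -0.17, a difference of 1.99) and Sqle (-1.63 and 0.68, a difference of -2.31). Between leptin and saline mutants the members were Cideb (-0.09 in mice and 0.07 in rats, a difference of -0.16), Plin2 (0.06 and -0.12, a difference of 0.18) and G0s2 (0.0048 and -0.09, a difference of 0.0901). These 3 members lay within the spread between probe sets in both species. The other genes were Lpcat1 (-0.36 in mice and 0.27 in rats, a difference of -0.63), Ppard (0.21 and -0.72, a difference of 0.93, with 1 mouse array under the floor) and Ppargc1a (0.04 and -1.0, a difference of 1.04). In mice the signs of Lpcat1 and Ppargc1a depended on the probe set. Other mouse probe sets of Lpcat1 over the floor gave 0.23 and -0.78, and those of Ppargc1a ran from -0.33 to 0.08. The array platforms differ between the species, and the part of that in these differences was not tested.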

How the results depend on the processing

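Of 324 member ratios recomputed under the 6 alternatives, 313 stayed within the spread between probe sets of the main value, 11 moved further and 0 that were past 2-fold changed sign. All 11 came with another floor. Between saline mutant and WT mice, Cidea was at least 610-fold higher with the 25th percentile floor and at least 38.3-fold with the 75th. Cidec was 96.4-fold higher with the lower floor, which its WT signal of 32.6 passed, and at least 8.16-fold with the higher. Plin4 was at least 7.13-fold higher with the higher floor. The count of 6 higher mouse members changed under no alternative by more than 1.5 times, although Plin5 ran from 1.72-fold to 2.42-fold and Fitm2 from 1.92-fold to 2.29-fold. In rats, Plin3 passed 2-fold at 2.01 with arrays divided by their medians, giving 2 members higher in place of 1. Leaving out rat Plin4, an alternative chosen after seeing the data, left that count at 1, of 8 members. Plin5 after leptin became 2.15-fold lower with the 25th percentile floor, giving 1 member lower in place of 0. In mice Cideb has 1 probe set, of the kind left out in the last alternative.

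The partner and regulator counts are small and moved by 1 or 2 genes. Main counts of partners were 5 higher between genotypes in mice (3 without probe sets that may bind several transcripts), 1 lower there (0 with the higher floor), 1 lower for leptin mutant against WT mice (0 with the higher floor, 2 without those probe sets), 1 higher for leptin mutant against WT rats (2 with array medians) and 0 lower after leptin in rats (1 with the lower floor, Plin1). Regulator counts between genotypes in mice were 2 higher (1 by the median over probe sets, 1 without those probe sets) and 1 lower (0 without them), and the same values held for leptin mutant against WT mice, where array medians also gave 0 lower. In rats, regulators lower were 0 between genotypes (1 with the lower floor, Rxra), 1 after leptin (0 by quantiles, by array medians and with the higher floor) and 1 for leptin mutant against WT (2 with the lower floor, 0 with the higher), and 1 was higher in that last comparison (0 by the median over probe sets). Over all genes, the lower floor gave 984 higher and 1341 lower between genotypes in mice and the higher floor 267 and 198, beside 533 and 443; after leptin in mice they gave 408 and 436, and 5 and 4, beside 21 and 28; and for leptin mutant against WT mice 922 and 1318, and 231 and 182, beside 476 and 414 (767 and 235 with array medians). In rats the lower floor gave 694 and 453, the higher 112 and 74, beside 294 and 142 between genotypes; 211 and 296, 8 and 5, beside 23 and 27 after leptin; and 631 and 520, 113 and 73, beside 276 and 157 for leptin mutant against WT. No paired analysis was possible because each group holds 1 array, and for the same reason no replicate could be left out. Signals near the floor, as of rat Plin4, Plin5, Fitm1 and Pparg, limit what these arrays can show.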
